A study of Mus musculus with 4 samples.

Results

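Binding of the zinc-finger protein Zfp574 was examined at the promoters of Ercc1, Mdc1 and Mdm4, genes of DNA repair and of p53 control. The genes were chosen from peaks already seen in these data, so that a peak in the merged list was given for each by the choice, and strengths, replicate support and peak splitting are described without a test. All rows of the peak lists that overlapped 500 bp on either side of any GENCODE TSS (transcription start site) of these genes were taken. They came to 4 of 140 rows in the merged list, 2 of 80 in replicate 1 and 5 of 96 in replicate 2. A merged row lay at a promoter of 0.547% of 21924 protein-coding genes, against 0.328% for replicate 1 and 0.369% for replicate 2.

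Cut&Run, in which an antibody guides a nuclease so that DNA beside a bound protein is cut free and sequenced, was performed with a V5-tag antibody in mouse embryonic stem cells. In the 2 AID-Zfp574 samples, a V5 epitope and an auxin-inducible degron had been inserted at the N terminus of endogenous Zfp574 in the OsTir1 parental line, and no auxin had been added according to the peak names. The 2 control samples were of the OsTir1 parental line itself, whose Zfp574 has no V5 tag. Both groups carry OsTir1, the plant F-box protein that degron removal needs, with mCherry under an EF1a promoter, and both derive from diploid cells of the originally haploid HMSc2 line. The parental line is clonal and the tagged line was grown from single genotyped clones, so the data describe these clones. The parental line enters only as the background behind each row, since its own peaks were not analysed here.

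Ercc1 forms with Xpf the endonuclease that cuts the damaged strand on its 5′ side in nucleotide excision repair, and it also acts in interstrand crosslink repair. Mdc1 is the scaffold that reads phosphorylated H2AX beside a double-strand break and brings in the ubiquitin ligases of the break response. Mdm4 binds p53, masks its activation domain and works with Mdm2, the ligase that marks p53 for degradation. Zinc-finger proteins of the C2H2 class contact DNA through arrays of fingers, and many of them bind close to start sites.

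The DNA under the peaks is shown first, because the rows differed in the words they hold. ATAGAG and CTAGAG, searched on both strands, were the 6-mers that led on all peaks of these data in earlier work, with these peaks among them. Capitals mark these words or their reverse complements. The first set aligns 30 bases of the plus strand of mm10 (GRCm38, RefSeq assembly) on ATAGAG, at chr7:19345018-19345047 for Ercc1, chr17:35841299-35841328 for Mdc1 and chr1:133025408-133025437 for Mdm4.
Ercc1: gaccATAGAGagcagcgcgaATAGAGttcc
Mdc1: tatgATAGAGcccttctagccgccgccggt
Mdm4: aaccATAGAGcggaccctggaggaCTAGAG
Ercc1 held ATAGAG at 2 positions on one strand, Mdc1 held it once, and Mdm4 held ATAGAG followed by CTAGAG. The Ercc1 and Mdm4 stretches shared the longer words ACCATAGA and CCATAGAG, which overlap each other and ATAGAG. The Mdc1 stretch had neither. In windows of 601 bp, ACCATAGA was held by 32.9% of the 140 merged summits and 1.35% of protein-coding TSSs. For CCATAGAG the shares were 39.3% and 1.99%. Both words were thus common among the merged rows, which include these promoters, and are not particular to Ercc1 and Mdm4.

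The second set shows the parts of the merged rows outside annotated exons in the orientation of each gene, at chr7:19345197-19345496 (plus strand, intronic) for Ercc1, chr17:35841195-35841494 (plus strand, upstream) for Mdc1 and chr1:133025417-133025682 (minus strand) for Mdm4, to show where the words fall and the gap between the Mdm4 rows.
Ercc1: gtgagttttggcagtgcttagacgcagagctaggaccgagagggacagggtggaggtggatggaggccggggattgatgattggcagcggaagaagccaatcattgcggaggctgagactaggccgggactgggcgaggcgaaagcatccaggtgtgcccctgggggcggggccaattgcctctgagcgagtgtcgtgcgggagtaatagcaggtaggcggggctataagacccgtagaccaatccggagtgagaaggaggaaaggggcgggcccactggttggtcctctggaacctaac
Mdc1: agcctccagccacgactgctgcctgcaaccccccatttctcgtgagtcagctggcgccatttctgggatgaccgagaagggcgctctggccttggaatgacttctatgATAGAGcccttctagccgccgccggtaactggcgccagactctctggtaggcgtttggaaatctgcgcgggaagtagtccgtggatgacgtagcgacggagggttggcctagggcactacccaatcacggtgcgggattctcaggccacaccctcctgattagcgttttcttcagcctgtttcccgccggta
Mdm4: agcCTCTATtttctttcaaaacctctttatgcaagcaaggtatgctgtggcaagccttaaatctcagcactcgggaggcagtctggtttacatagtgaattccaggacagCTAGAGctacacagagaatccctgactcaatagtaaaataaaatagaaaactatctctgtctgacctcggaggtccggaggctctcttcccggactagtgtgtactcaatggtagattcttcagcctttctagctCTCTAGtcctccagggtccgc
The intronic side of the Ercc1 row held neither 6-mer, and both of its ATAGAG words lie in the upstream stretch shown in the first set. The Mdm4 stretch opened with ATAGAG on the opposite strand, passed a CTAGAG in the gap between the rows and ended close to the CTAGAG under the summit.

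Fold enrichment, the ratio of treatment reads to background at the highest point (summit) of a row with 1 added to each, was highest at Ercc1. Its merged row (chr7:19344964-19345522, 559 bp) had a fold enrichment of 12.6 and a −log10 q of 15.5. In replicate 1 a row of 501 bp had 14.8, and in replicate 2 the stronger row had 13.9. Ercc1 was thus the first of 80 rows in replicate 1 and the first of 96 in replicate 2, and the third of 140 in the merged list. The number of reads behind a summit was solved from the fold enrichment and the p-value, and was 19 in the merged list (exact 95% Poisson interval 11.4 to 29.7), 18 in replicate 1 (10.7 to 28.4) and 17 in replicate 2 (9.90 to 27.2). Both replicates lay close together, at 14.3 ± 0.619 (SD, n = 2) in fold enrichment.

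Mdc1 stood below Ercc1 in each list. Its merged row (chr17:35841192-35841628, 437 bp) had a fold enrichment of 10.95, a −log10 q of 11.9 and 16 reads (9.15 to 26.0). Replicate 1 had a row of 258 bp with 10.2 and 12 reads (6.20 to 20.96), and replicate 2 had a stronger row of 223 bp with 9.37 and 11 reads (5.49 to 19.7). The mean of the replicates was 9.79 ± 0.593 (SD, n = 2), and the ranks were 6 of 140, 6 of 80 and 13 of 96, each tied with 1 or 2 other rows. In the order of the merged list Mdc1 was level with the promoters of Zscan26 and Zkscan5, zinc-finger genes that each had 10.95 and 16 reads.

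Mdm4 was the weakest and stood below the median row of the merged list, which had a fold enrichment of 7.61 and 12 reads. Its stronger merged row (chr1:133025414-133025496, 83 bp) had 6.44, a −log10 q of 3.74 and 9 reads (4.12 to 17.1). A further merged row (chr1:133025633-133025682) was 50 bp wide, the length of 1 read, with 6.36, a −log10 q of 3.65 and also 9 reads. Replicate 2 had a single row (chr1:133025361-133025496, 136 bp) with 7.03 and 8 reads (3.45 to 15.8), and replicate 1 listed no row, which says only that no row passed the caller's threshold there. The merged Mdm4 rows ranked 94 (tied with 3 others) and 102 (tied with 9) of 140, and the replicate 2 row ranked 57 of 96 (tied with 4). The lowest summits listed had 8 reads in the merged list and 6 in each replicate list, so that Mdm4 was near the smallest number of reads that gave a row.

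The order Ercc1, Mdc1, Mdm4 was the same in the merged list and in replicate 2, and Ercc1 was above Mdc1 in replicate 1. The Poisson intervals of neighbours in this order overlapped in each list, and in the merged list those of Ercc1 and Mdm4 overlapped as well. Overlap of separate intervals is not a test of a difference between counts, and none was run, so the order is not shown to exceed counting error. The lists also partly share reads. The rows next to Ercc1 in the merged order had 20 reads (Atp6v1d and Eif2s1, fold enrichment 13.5) and 18 reads (a chromosome 13 row with no protein-coding gene in its window, 12.2), with intervals that overlapped that of Ercc1. Rps9, the row just above the stronger Mdm4 row, had 6.52 with 13 reads, so rows of almost equal fold enrichment had different numbers of reads over different backgrounds. The other Mdm4 row came after a row at P2rx3 and Ssrp1 (6.40, 12 reads), and Zfp62 was level with it (6.36, 9 reads). Background at the summits was 0.552 reads under Mdc1 and the stronger Mdm4 row, the lowest value in the merged list, and 0.582 under Ercc1. The lower fold enrichment of Mdm4 beside Mdc1 thus came with fewer treatment reads over an equal background.

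**Figure D1:**
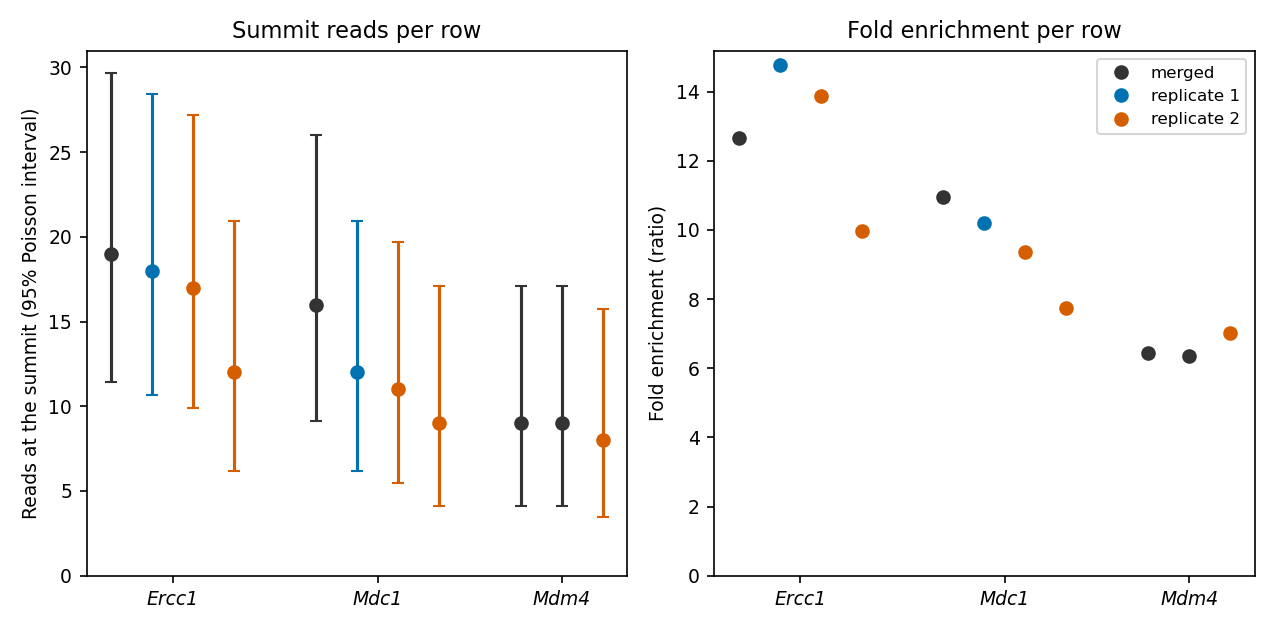
Summit reads with exact 95% Poisson intervals (left) and fold enrichment as a ratio (right) for each row at the Ercc1, Mdc1 and Mdm4 promoters, coloured by list. Ercc1 reached 17 to 19 reads in all lists, Mdc1 11 to 16 in its strongest rows and Mdm4 8 to 9, with overlapping intervals.

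**Figure D2:**
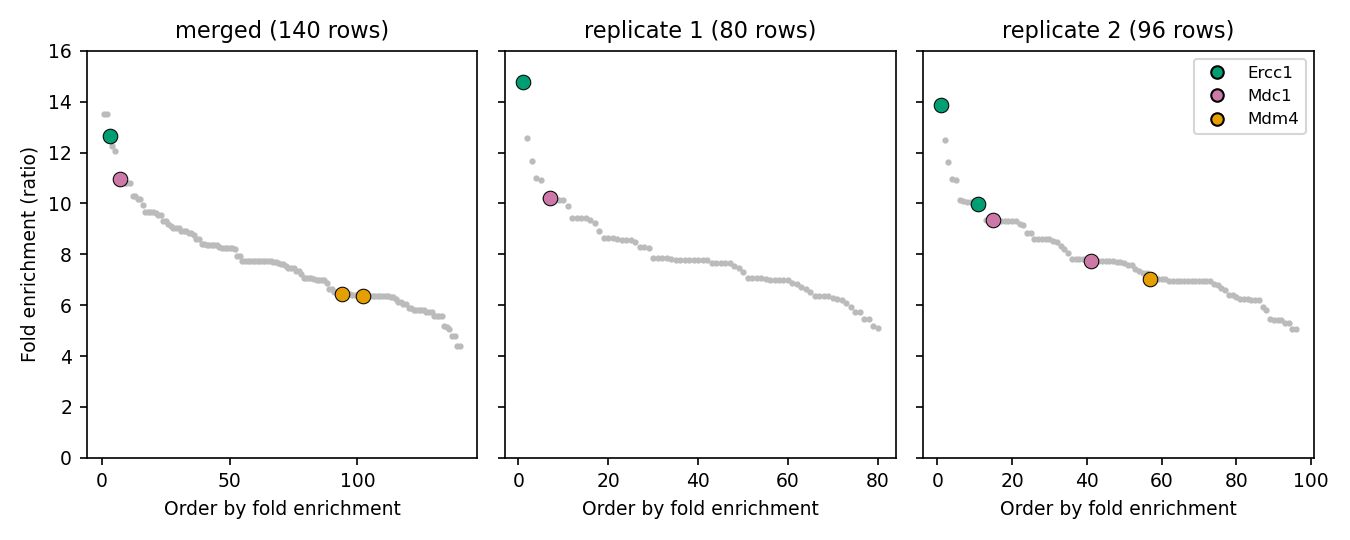
Fold enrichment of each row against its order in the merged list (140 rows), replicate 1 (80) and replicate 2 (96), with the rows of the 3 promoters coloured and rows that tie placed by position. Ercc1 led both replicate lists, the strongest Mdc1 row ranked 6 to 13 in each list and its second replicate 2 row 40 of 96, and Mdm4 was at rank 94 and below in the merged list and absent from replicate 1.

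Replicate support followed the same split. The merged rows of Ercc1 and Mdc1 each overlapped a row in both replicates, as did 54 of the 140 merged rows (38.6%). The stronger Mdm4 row overlapped replicate 2 alone, a class of 34 rows (24.3%), and the 50-bp row overlapped neither, a class of another 34 rows (24.3%). Summits recurred close to each other. Those of Ercc1 were 16 bp apart between replicates, those of the strongest Mdc1 rows 43 bp. The Mdm4 summit had no counterpart in replicate 1, and its position, 133025433, was the same in replicate 2 and in the merged list, which holds the replicate 2 reads. Under a demand that at least 50% of each row be shared, Mdc1 kept its support and Ercc1 lost it. Its replicate 2 signal was divided into rows of 124 and 252 bp, neither of which alone covers that share of the 559-bp merged row, although together they cover 376 bp.

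Summit reads of the merged list were set against the sum of the strongest overlapping rows of both replicates. Summits of separate lists can differ, and the strongest row was that of highest fold enrichment, which need not hold the most reads. A pooled pileup cannot exceed the sum of separate maxima. A ratio of at most 1 is therefore likely by construction, though not certain, and its size alone is described. At Ercc1 the replicates summed to 35 reads and the merged row had 19, or 0.543 times the sum, the lowest ratio among the 54 shared rows (median 0.711, highest 0.875). At Mdc1 the sum was 23, the merged row had 16 and the ratio was 0.696. Relative to depth, Ercc1 had 1.76 and 1.62 reads per M (mega) of solved reads in replicates 1 and 2 and 0.920 in the merged list, while Mdc1 had 1.17, 1.05 and 0.775, on depths that assume fragments of 50 bp. Ercc1 was also among 8 of the 54 shared rows whose merged fold enrichment lay below that of both replicates, whereas the merged value of Mdc1 lay above both. The third place of Ercc1 in the merged list and its first place in each replicate differ in this way, and the cause was not tested.

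**Figure D3:**
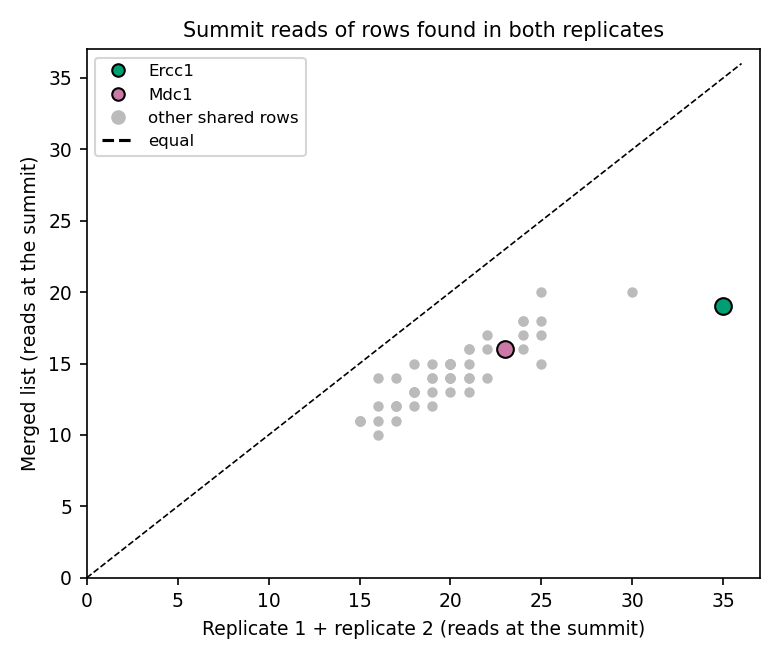
Reads at the summit in the merged list against the sum of the strongest overlapping rows of replicates 1 and 2, for the 54 merged rows found in both, with the dashed line at equal values. Points at or below the line are likely by construction, and Ercc1, at 35 reads summed and 19 merged, lies farthest below it in ratio.

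The promoters differed in how their signal was divided into rows. Ercc1 and Mdc1 were each 1 row in the merged list and in replicate 1 and 2 rows in replicate 2, whereas Mdm4 was 2 rows in the merged list and 1 in replicate 2. In replicate 2 the second Ercc1 row (chr7:19345220-19345471, 252 bp) had a fold enrichment of 9.97 with 12 reads (6.20 to 20.96) and ranked 11 of 96. It began 52 bp after the first row ended, and its summit was 246 bp from the first. The second Mdc1 row (chr17:35841543-35841628, 86 bp) had 7.74 with 9 reads (4.12 to 17.1) and ranked 40 of 96, tied with 7 others, near the median of 7.71, after a gap of 79 bp and with summits 265 bp apart. Each merged row spanned both replicate 2 rows, and of the 88 merged rows with any replicate 2 row, 7 (7.95%) covered 2 or more. Promoters with 2 or more rows were otherwise common, at 31 of 120 genes (25.8%) in the merged list, 24 of 72 (33.3%) in replicate 1 and 26 of 81 (32.1%) in replicate 2.

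The gaps differed in their sequence. In Ercc1 and Mdc1 no base of the gap was repeat-masked, and each of the 101 and 128 stretches of 50 bases that touch it was unique in the genome when 3 mismatches were allowed, the mapping rule of the reads. In Mdm4 the gap was 136 bp long, of which 112 bp were repeat-masked, and 9 of its 185 stretches were not unique. At the outer edge of the 50-bp row, 105 stretches of 50 bases in succession were not unique under the same rule, from a start at 133025673 inside the row, and 10 of them overlap it. On the other side, 9 stretches that touch the replicate 2 row were not unique. The window of 301 bp on the summit of the outer 50-bp row was 89.7% repeat-masked, the highest of all 140 merged summits (median 1.66%), against 27.9% at the stronger Mdm4 row and 0% at Ercc1 and Mdc1. The part of unique mapping in the division of the Mdm4 rows was not tested. Joined across gaps of up to 150 bp, each promoter had 1 region in each list that had a row.

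**Figure D4:**
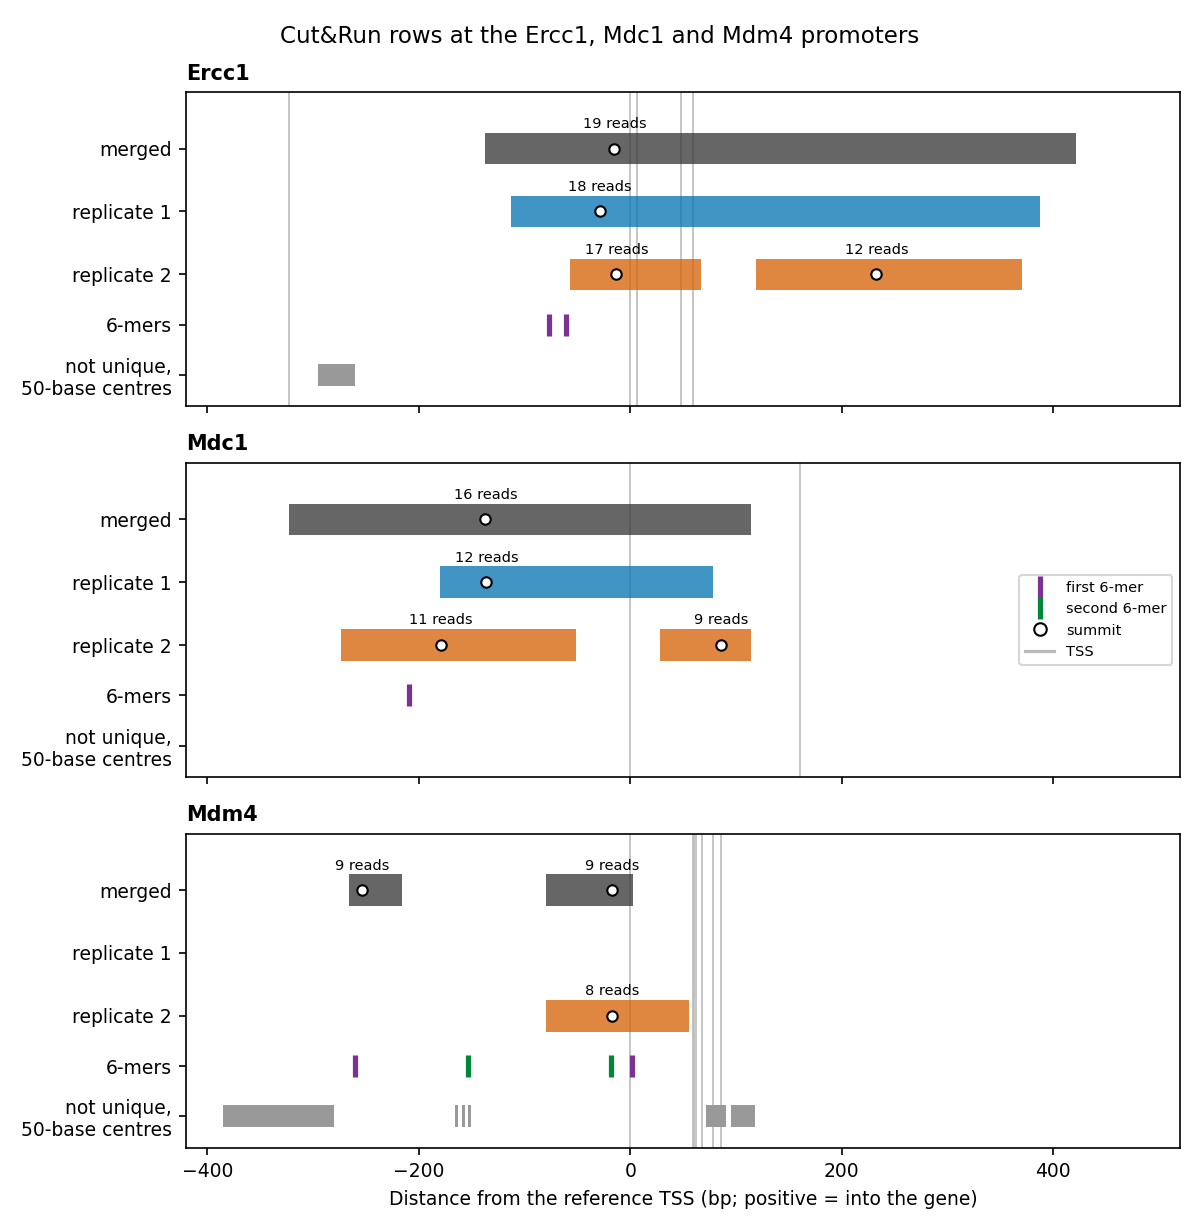
Rows (bars), summits (circles, with the solved reads) and TSSs (grey lines) at the 3 promoters by list, against distance in bp from the GENCODE TSS nearest to the strongest merged summit, positive into the gene. Ticks mark the first 6-mer (that held by all 3 promoters) and the second (found at Mdm4), and grey blocks mark centres of 50-base stretches that are not unique, which lie beyond the outer Mdm4 row, in the gap of the merged rows and beyond the replicate 2 row, and outside the Ercc1 and Mdc1 rows.

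Summits lay at different places relative to the start sites. The merged Ercc1 summit was 15 bp upstream of the GENCODE TSS at 19345101 and 15 bp downstream of the RefSeq TSS at 19345071, in the 5′ UTR of 1 longer transcript, and the second replicate 2 summit was intronic, 174 bp downstream of the TSS at 19345160. The merged Mdc1 summit was 137 bp upstream of the TSS at 35841515 and outside any transcript, while its second replicate 2 summit fell in a UTR between this TSS and one at 35841676. Both Mdm4 summits were upstream of the TSS at 133025416, at −17 bp and −254 bp, and intronic in the single transcript that starts at 133030561. The only other gene with a TSS within 500 bp of these rows was Gm29257, a processed pseudogene on the other strand whose TSS was 119 bp from the outer Mdm4 row, so that this row cannot be assigned to Mdm4 by position alone. The nearest merged row outside the windows was 3072 bp from an Mdc1 TSS, at Tubb5, with a fold enrichment of 5.80 and 8 reads, against a summit at −254 bp for the outermost row taken, at Mdm4.

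The 6-mers had different positions under the peaks. In Ercc1 the ATAGAG words at chr7:19345022-19345027 and chr7:19345038-19345043 were centred 61.5 and 45.5 bp from the merged summit, inside the merged and replicate 1 rows and just outside the replicate 2 row. In Mdc1 the ATAGAG at chr17:35841303-35841308 was 72.5 bp from the merged summit, inside the merged and replicate 2 rows but outside that of replicate 1. In Mdm4 a CTAGAG at chr1:133025432-133025437 was centred 1.5 bp from the summit of the stronger row, and an ATAGAG started 20 bp before it on the same strand. The CTAGAG was inside the merged and replicate 2 rows. That ATAGAG was inside the replicate 2 row alone and began just outside the merged row. The outer Mdm4 row had an ATAGAG centred 6.5 bp from its summit. Within 300 bp of the strongest merged summit there were 2 ATAGAG and 0 CTAGAG at Ercc1, 1 and 0 at Mdc1, and 2 and 2 at Mdm4. Within 100 bp there were 2 and 0 at Ercc1, 1 and 0 at Mdc1, and 1 and 1 at Mdm4, so the order of these counts depends on the distance. Among windows of 601 bp on 21897 protein-coding TSSs, 17% held ATAGAG, 25.7% CTAGAG and 4.47% both, against 62.1%, 76.4% and 48.6% of the 140 merged summits, which chose the words and include these promoters.

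Longer words were shared by pairs of the promoters. These were read from the merged rows after the sequences were seen and are a description. Their shares among TSS windows therefore do not measure how unusual the sharing is. Ercc1 and Mdm4 shared CCTGGAGGAC, which 0.42% of the TSS windows hold. At Mdm4 it ended on the first base of the CTAGAG under the summit (chr1:133025423-133025432), and at Ercc1 it lay on the opposite strand and adjoined ACCATAGA (chr7:19345009-19345018). Ercc1 and Mdc1 shared CGCTCTGGCC (0.388% of TSS windows), centred 5.5 bp from the merged Ercc1 summit and 97.5 bp from that of Mdc1, and GCCCCGCCCC, a GC-box word held by 11.4%. Mdc1 and Mdm4 shared AGGCTGAAGAA (0.0731%), 97 and 18 bp from their summits. The longest words common to all 3 promoters were 7-mers, each present in 13.6% to 21.8% of the TSS windows.

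Base composition differed between the rows of one promoter. GC content was 60.5% in the merged Ercc1 row and 59.5% in that of Mdc1, with ratios of observed to expected CpG of 0.690 and 0.776. At Mdm4 it was 53.01% in the stronger merged row, 40% in the outer row and 44.1% in the gap between them, while the wider replicate 2 row had 58.1%, near the value of Mdc1. In windows of 301 bp on the summits, GC content was 57.5% at Ercc1, 58.5% at Mdc1, 54.8% at the stronger Mdm4 row and 47.8% at the outer one, where the median of all merged summits was 59.8%. The outer Mdm4 row thus ranked 133 of 140 in GC content and 134 in CpG ratio.

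To ask whether peaks were found at other genes of these pathways, 139 further genes of DNA repair, checkpoint control and p53 signalling were examined in the same windows. A merged row was found at 1 of them (0.719%), close to the 0.547% of all protein-coding genes, and replicates 1 and 2 had rows at 0. The gene was Rad1, a subunit of the checkpoint clamp that is loaded at damaged DNA. Its row (chr15:10486003-10486092, 90 bp) had a fold enrichment of 6.63 with 10 reads (4.80 to 18.4), a summit 5 bp downstream of the TSS and a rank of 89 of 140. It was in neither replicate and shared its window with Brix1, a ribosome biogenesis gene. No row was found at the 23 listed genes of nucleotide excision repair, which include Ercc4 (Xpf), the 16 of double-strand break signalling, which include H2afx and Rnf8, or the 24 of p53 control and response, which include Trp53 and Mdm2. At the background share, lists of these sizes hold less than 1 gene with a row on average, so the zeros are no result about the pathways. The listed gene without a row that lay nearest to one was Ppp1r13l, 14227 bp away.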

How the data were processed

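Cut&Run peak lists of 2 AID-Zfp574 samples, and of both combined (merged list), were used; groups and replicate numbers came from the sample labels. The authors sequenced 50-bp single reads, mapped them to mm10 with Bowtie 0.12.9 (unique positions, up to 3 mismatches) and called peaks with MACS2 2.1.2.1 with the OsTir1 parental line as the respective input, for each replicate and for the merged reads. The handling of reads that share a position is not given in the sources used here. The deposited lists hold row positions, a fold enrichment (a ratio at the summit), its −log10 p-value and −log10 q-value, and a score that is 10 times the −log10 q-value.

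Summit reads were the whole number (up to 80) that best reproduced fold enrichment and p-value under a Poisson tail with pseudocount 1. All rows fitted within 1e-04 on the −log10 p scale, and 100% of 2000 simulated rows were recovered. Depth, solved from the lowest background for 50-bp reads, was 10.2 M reads in replicate 1, 10.5 M in replicate 2 and 20.6 M in the merged list, and rests on the genome size that MACS2 uses and on an assumed fragment length of 50 bp. The stated MACS2 extension size was 300 bp, and with that length the depths would be lower, and the reads per M higher, in proportion. Intervals cover counting error alone. Fold enrichment is compressed by the pseudocount to a degree that depends on depth, so it is best compared within a list. TSSs were those of GENCODE M21, with RefSeq as an alternative. Uniqueness was searched over the 22 assembled sequences. Python 3.11.15, scipy 1.17.1, numpy 2.4.6, samtools 1.23.1 and matplotlib 3.10.9 were used. The genes named were the 3 members, genes within 500 bp of their rows, listed genes with a row and neighbours in the merged order. Tubb5, Ppp1r13l and the listed partner genes without a row were named after their values were seen. The members, gene lists and 6-mers were chosen with earlier results of these data known. Rows, windows, thresholds, overlap rules, TSS sets and word distances were varied.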

Additional observations from a re-analysis of the deposited data

How the results depend on the processing

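No paired analysis was possible because peaks of the OsTir1 parental samples were not analysed here, which leaves the shared replicate numbers without parental values to pair. Each replicate's fold enrichment is already a value against its parental input, as the methods describe. Of 71 alternative values, 46 stayed within a limit and 25 moved. The limit was 1 SD of the replicates for fold enrichment (any change at Mdm4, with 1 replicate row), the Poisson interval, which is wider, for summit reads, and 1.5 times for counts.

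In the replicate lists alone, fold enrichment was 13.9 to 14.8 at Ercc1, 9.37 to 10.2 at Mdc1 and 7.03 at Mdm4, the number of rows was 1 to 2 at Ercc1, 1 to 2 at Mdc1 and 0 to 1 at Mdm4, and 0 listed genes had a row. These row counts by replicate, and those with RefSeq TSSs, were added after seeing the data. With pseudocount 0, summit reads would be 30.1 at Ercc1, 26.4 at Mdc1 and 17.1 at Mdm4, values that are not whole. Mdm4 had 1 row in windows of 100 bp and 0 rows at a −log10 q of at least 5, where the listed genes with a row were also 0. With at least 50% of each row shared, Ercc1 had 0 merged rows in both replicates. Within 50 bp of the strongest merged summit, ATAGAG numbered 1 at Ercc1, 0 at Mdc1 and 1 at Mdm4. At Mdm4 it also numbered 1 within 100 bp and within 150 bp, and CTAGAG numbered 1 within 50 bp and within 100 bp.

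Depth limits the order of these promoters: summits rest on 8 to 19 reads, the lists name only rows past a threshold, and the samples are 2 replicates of cloned lines, so an unlisted promoter is not shown to lack signal.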
